A study of Mus musculus with 48 samples.

Results

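The genes described here are 32 genes of fatty acid oxidation and ketone metabolism, chosen by gene symbol from knowledge of the pathway and found in a table of 47643 mouse genes. Levels were measured by translating ribosome affinity purification (TRAP), in which tagged ribosomes are pulled down from a tissue together with the RNA they carry. The mice were of the transgenic line Tg(Aldh1l1-eGFP/Rpl10a) JD130Htz, in which regulatory sequence of the astrocyte gene Aldh1l1 drives a green fluorescent version of the ribosomal protein L10a. The tissue was the dorsal hippocampus, the antibody was directed against the fluorescent tag, and no drug, mutation or other treatment is given in the labels. Each of 3 animals (C1, C2 and C3, here animals 1 to 3) gave a whole-astrocyte preparation (Astro) and a preparation of perisynaptic astrocytic processes (PAP), the fine branches of astrocytes that surround synapses. The labels give no age or sex, and both preparations carry the same transgene, so the comparison is between compartments of the same animals. A background from tissue without the tag was not used here.

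Cells burn long-chain fatty acids by first joining them to coenzyme A. The chains then enter mitochondria on carnitine and are shortened by repeated cycles of dehydrogenation, hydration, a second dehydrogenation and thiolysis. Electrons from the dehydrogenases pass through electron transfer flavoprotein to the respiratory chain, and very long or branched chains are first shortened in peroxisomes. Ketone bodies are made from the acetyl-CoA that results, mainly in liver, and are used as fuel in brain, where astrocytes are held to be the main site of fatty acid oxidation.

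Sequences are shown for the genes on which the results turn. The promoters of Acsl6 and Acsl5, which encode enzymes of the same activation step with opposite calls in PAP, and of Hadhb, which lies head to head with Hadha, are RefSeq windows on GRCm38.p6. Each runs 5′ to 3′ on the gene's strand from 250 bases before the annotated start to 50 bases after it. Capitals mark AGGTCA or its reverse complement TGACCT, the half-site bound by many nuclear receptors, and the windows of Acsl5 and Hadhb hold none. The Acsl6 window at chr11:54303574-54303873 (plus strand) is the most upstream of 3 listed for that gene, and the others also hold no half-site, unlike the one printed.
Acsl6: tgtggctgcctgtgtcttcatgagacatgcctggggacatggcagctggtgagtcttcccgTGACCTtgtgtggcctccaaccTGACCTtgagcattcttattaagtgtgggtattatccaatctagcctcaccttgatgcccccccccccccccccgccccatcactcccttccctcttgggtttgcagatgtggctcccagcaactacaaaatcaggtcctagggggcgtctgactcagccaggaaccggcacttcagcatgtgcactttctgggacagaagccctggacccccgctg
Acsl5, chr19:55253119-55253418, plus strand: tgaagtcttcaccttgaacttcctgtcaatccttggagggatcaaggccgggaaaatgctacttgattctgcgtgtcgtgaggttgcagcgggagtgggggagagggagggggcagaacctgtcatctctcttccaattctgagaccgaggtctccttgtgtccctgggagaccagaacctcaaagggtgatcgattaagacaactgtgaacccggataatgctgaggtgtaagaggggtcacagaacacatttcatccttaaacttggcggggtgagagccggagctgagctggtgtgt
Hadhb, chr5:30155003-30155302, plus strand: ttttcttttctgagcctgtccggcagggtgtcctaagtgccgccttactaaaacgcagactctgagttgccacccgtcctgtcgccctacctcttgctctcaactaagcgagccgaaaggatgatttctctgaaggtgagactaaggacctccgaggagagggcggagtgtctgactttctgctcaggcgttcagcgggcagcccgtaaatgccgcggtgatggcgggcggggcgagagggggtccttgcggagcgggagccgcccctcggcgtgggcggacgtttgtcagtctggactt

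A second pair is shown because Acot1 and Acot2, neighbouring thioesterase genes on chromosome 12, are so alike that short reads can be assigned to either. Over 1235 aligned coding bases they were 95.5% identical. Stretches of 120 coding bases of the reference transcripts follow, with capitals at the 14 bases that differ. They span coding bases 767 to 886 in Acot1 and 890 to 1009 in Acot2.
Acot1: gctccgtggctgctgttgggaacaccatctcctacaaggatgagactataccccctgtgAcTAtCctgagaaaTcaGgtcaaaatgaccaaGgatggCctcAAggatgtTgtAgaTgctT
Acot2: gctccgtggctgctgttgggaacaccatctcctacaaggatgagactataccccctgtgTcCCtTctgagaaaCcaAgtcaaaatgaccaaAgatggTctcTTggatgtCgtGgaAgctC

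The 8 technical replicates of a preparation were summed into 1 library, which left 3 libraries for either compartment. Library totals lay between 18707844 and 20293538 counts for Astro, and between 1829962 and 2980984 for PAP. Levels are given as CPM, which are counts adjusted to the same library size with the trimmed mean of M-values (TMM), on which 3 counts are worth 0.152 to 0.176 in Astro and 0.991 to 1.55 in PAP. Those 3 counts are the upper limit that a count of 0 allows for a library, for counting error only. The spread between animals differed between compartments, with a biological coefficient of variation of 0.335 in Astro and 1.61 in PAP. Of 12 astrocyte markers, 11 had more than 3 counts in every PAP library. In the edgeR fit 5 of the 12 (Aldh1l1, Gjb6, Slc1a3, Aldoc and Sox9) were called lower, beside 15.4% of all genes tested. The summed level of the 12 was 32550, 26870 and 24070 CPM in Astro and 3658, 8479 and 14350 CPM in PAP. Summed levels of 10 neuronal, 8 oligodendrocyte, 8 microglial, 8 endothelial and 5 ependymal or choroid plexus markers overlapped between compartments, although single genes moved in both directions. The last of these sums was mostly Ttr (8675 of 8751 CPM in Astro), while 3 of the 5 genes (Foxj1, Ccdc153 and Tmem212) and 3 of 7 tested microglial genes (Cx3cr1, P2ry12 and Tmem119) were called lower, and none of the markers was called with the animal as a block. The neuronal genes Snap25 (log2 fold change -2.22, edgeR adjusted p = 0.0296) and Syt1 (1.40, adjusted p = 0.0414) were called lower and higher in PAP (adjusted p of 0.127 and 0.206 under the animal block). Neuronal Camk2a, at 105.1, 392.3 and 218.4 CPM in PAP and 24.01, 41.25 and 84.17 in Astro (adjusted p = 0.0663), oligodendrocyte Cldn11 (adjusted p = 0.220) and endothelial Ly6c1 (adjusted p = 0.0900) lay above Astro in every PAP library without passing the threshold. Oligodendrocyte Cnp (adjusted p = 0.0847), neuronal Gad2 (adjusted p = 0.309) and Tubb3 (adjusted p = 0.0639), and microglial Csf1r (adjusted p = 0.537) likewise lay below. These single genes were chosen after their values were seen. Cx3cr1, P2ry12, Tmem119, Aif1, Cldn5, Cdh5, Ccdc153 and Tmem212 were at 0 in every PAP library. The part that these differences in depth, spread and markers play in the results was not tested.

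The question addressed by the comparison is which astrocytic messages are found on ribosomes in the processes beside synapses. Of all counts, the 32 genes together made up 0.496% ± 0.0453 in Astro against 0.249% ± 0.0431 in PAP (SD, n = 3). In scaled levels their sum was 5755, 4872 and 5101 CPM against 1865, 2661 and 2603 CPM in animals 1 to 3, so that every PAP library lay below every Astro library. In bulk material of this kind, less process material and less of a message per process cannot be told apart.

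Gene by gene, with edgeR's quasi-likelihood test and Benjamini-Hochberg adjustment over 14618 genes, 4 of the 32 genes were lower in PAP and 1 was higher. Acsl6, Hadhb, Ehhadh and Acot2 were the lower ones and Acsl5 the higher one. The 4 lower genes were 12.5% of the list, beside 15.4% of all genes tested, and the 1 higher gene was 3.12%, beside 5.92%, so the shares called were near or below those of all genes. With the animal as a block, which pairs the compartments of each animal, Acsl6 was the 1 gene of the list called lower, beside 0.0342% of all genes tested, and none was called higher, beside 0.876%. The other 4 genes called had an adjusted p of 0.206 in that fit. All 5 calls were lost without Astro replicate 1, where Acsl6 reached an adjusted p of 0.0513. The number of lower genes was 1 without Astro replicate 2 or 3, 7 without PAP replicate 1 or 2, and 11 without PAP replicate 3. Over all genes tested the share called lower moved with it, from 0.00773% without Astro replicate 1 and 0.0388% and 0.0389% without Astro replicates 2 and 3 to 19.6%, 17.8% and 20.2% without PAP replicates 1, 2 and 3.

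The values over the whole list are a description. All 32 genes passed the filter on low counts through Astro and had a median level of 112 CPM there, beside 20.6 CPM for all genes tested, some of which passed through PAP, so the shares set beside each other are not over like genes. The log2 fold change was negative for 28 of the 32 genes (87.5%, beside 60.9% of all genes tested) and its median was -1.41, beside -0.53 over all genes tested. With the animal as a block the medians were -2.07 and -1.63, so the gap between them was smaller. For the 12 astrocyte markers the median in the group fit was -1.58, below that of the list. Without a test, 18 genes (56.2%) had 3 PAP libraries that all lay below all 3 Astro libraries, beside 35.1% of all genes tested. Acsl5 alone (3.12%) had PAP libraries that all lay above, beside 10.9%. Within animals, 22 genes lay below Astro in every animal, as did 40.0% of all genes tested. The median within-animal log2 ratio of CPM + 1 was -2.19, -1.67 and -1.05 for the list in animals 1, 2 and 3, beside -1.05, -1.26 and -0.96 for all genes tested.

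**Figure D1:**
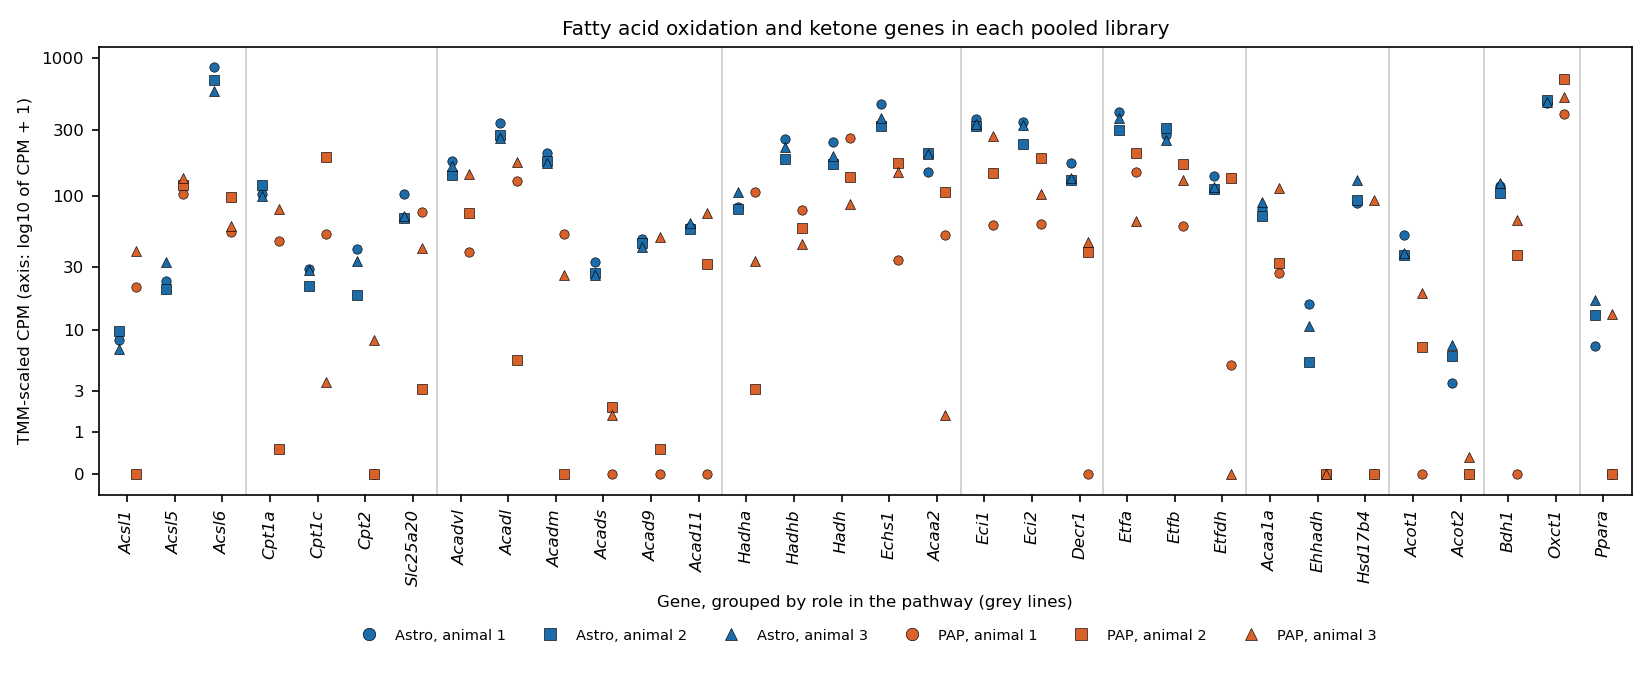
TMM-scaled CPM of each of the 32 genes (x axis, grouped by role) in each library, on a log10 axis of CPM + 1, with Astro in blue, PAP in orange and the marker shape giving the animal. Blue points lie close together for each gene, orange points are spread and reach 0 for many genes, and Acsl5 is the gene whose orange points all lie above the blue ones.

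The libraries of each compartment differed in how evenly they held the genes. Among Astro libraries the highest level of a gene was at the median 1.34 times its lowest and at most 2.87 times, and no gene had fewer than 66 counts in any Astro library. In PAP, 11, 7 and 2 of the 32 genes had 0 counts in animals 1, 2 and 3. At or under 3 counts were 11, 9 and 3 of the 32, beside 35.6%, 41.4% and 37.7% of all genes tested. More than 3 counts in all 3 PAP libraries were found for 17 genes (53.1%, beside 39.6% of all genes tested). For those 17 the highest level was 1.3 to 64.9 times the lowest, with a median of 3.69. With every library thinned to 1829962 counts, all 32 genes stayed above 3 counts in each Astro library and 17 did so in each PAP library. At that depth, 9 genes had 3 or fewer counts in 1 PAP library and 50 or more in another (28.1%, beside 24.4% of all genes tested). These were Acsl1, Cpt1a, Acadm, Acad9, Acad11, Decr1, Etfdh, Hsd17b4 and Bdh1.

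Activation to acyl-CoA, the step that commits a fatty acid to further metabolism, held opposite calls for 2 of its 3 genes. Acsl6 (ENSMUSG00000020333, chr11:54303798-54364756, plus strand) encodes a long-chain acyl-CoA synthetase of brain known for its use of docosahexaenoic acid. It stood at 850.3, 684.1 and 569.4 CPM in Astro and at 54.6, 97.42 and 60.47 CPM in PAP. Every PAP library lay far below every Astro library. The log2 fold change was -3.31 ± 0.36 (SE; edgeR adjusted p = 0.00702), and -3.33 with the animal as a block (adjusted p = 0.0403). The call was also lost in limma's voom fit with weights per group (adjusted p = 0.215) and held in 14 of 16 alternative settings.

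Acsl5 (ENSMUSG00000024981, chr19:55251938-55297720, plus strand), which encodes a synthetase of mitochondria and endoplasmic reticulum, stood at 23.69, 20.66 and 32.90 CPM in Astro. In PAP it stood at 103.6, 119.6 and 134.2 CPM, above every Astro library and with little spread among the animals. The log2 fold change was 2.21 ± 0.48 (SE; edgeR adjusted p = 0.0223), and 2.23 with the animal as a block (adjusted p = 0.206). The call was also lost without a filter on low counts (adjusted p = 0.0716), in the voom fit (adjusted p = 0.0635) and without any 1 of the Astro replicates (adjusted p of 0.0877 to 0.115), and it held in 10 of 16 settings. Per kilobase of exon, the mean level of Acsl6 was 70.7 CPM in Astro and 7.14 in PAP, while that of Acsl5 was 5.29 and 24.5, so the order of the 2 genes differed between the compartments.

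Acsl1, which encodes a synthetase abundant in fat and liver, stood at 8.327, 9.8 and 6.955 CPM in Astro and at 21.43, 0 and 39.65 in PAP, above Astro in animals 1 and 3 and at 0 in animal 2 (log2 fold change 1.29 ± 1.61, edgeR adjusted p = 0.682). Summed over the 3 activation genes, the level was 735.3 ± 137.7 CPM in Astro and 210.3 ± 27.95 in PAP (SD, n = 3), without overlap. Acsl6 made up most of the Astro sum, at a mean of 701.2 CPM. In PAP the means were 70.83 CPM for Acsl6 and 119.1 for Acsl5. The lower sum in PAP thus follows Acsl6, while the means of Acsl5 and Acsl1 were higher there. Exons of Acsl6 overlapped the antisense gene Gm12224 over 2.0% of their bases, and those of Acsl5 overlapped Zdhhc6 on the other strand over 8.3%. Since the strand setting of the counting is not given in the sources used here, reads from such overlaps may belong to either gene. Gm12224 itself had 2189, 1596 and 1404 counts in Astro and 23, 26 and 25 in PAP, and Zdhhc6 had 1047, 1210 and 987 against 386, 58 and 186.

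The carnitine shuttle, which carries activated chains across the inner mitochondrial membrane, held no gene past the threshold among 4. Slc25a20, the carnitine-acylcarnitine carrier, stood at 102.6, 68.89 and 71.53 CPM in Astro and at 76.54, 3.093 and 41.3 in PAP. Its PAP libraries reached from far below Astro to within its range (log2 fold change -1.01 ± 1.02, edgeR adjusted p = 0.603). Cpt1c, the brain form of carnitine palmitoyltransferase that sits in the endoplasmic reticulum, stood at 28.9, 21.71 and 28.68 CPM in Astro. In PAP it stood at 53.07, 191.2 and 3.635 CPM, so that 2 animals lay above Astro and 1 below (log2 fold change 1.64 ± 1.22, edgeR adjusted p = 0.452). The fold change was 0.54 with the animal as a block and 0.03 without PAP replicate 2.

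Cpt1a, the form at the outer mitochondrial membrane that controls entry, stood at 103.4, 119.4 and 100.4 CPM in Astro and at 46.43, 0.5154 and 80.96 in PAP (log2 fold change -1.33 ± 1.28, edgeR adjusted p = 0.579). Cpt2, its partner on the inner membrane, stood at 40.78, 18.54 and 33.05 CPM in Astro and at 0, 0 and 8.261 in PAP (-3.44 ± 1.90, edgeR adjusted p = 0.296), and it was called lower without PAP replicate 3 (adjusted p = 0.019). Both lay below Astro in all 3 animals. The summed level of the 4 genes was 246 ± 25.88 CPM in Astro and 168.3 ± 31.06 in PAP (SD, n = 3), without overlap. In PAP of animal 2, Cpt1c alone made up 191.2 of the 194.8 CPM, so the sum there does not stand for the other genes.

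Acyl-CoA dehydrogenases carry out the first step of each cycle and differ in the chain length they prefer, and none of the 6 passed the threshold. Acadl, for long chains, was the highest per kilobase in both compartments, at 146 CPM in Astro and 51.8 in PAP. It stood at 339.6, 277.2 and 263.3 CPM in Astro and at 128.6, 5.67 and 177.1 in PAP, with every PAP library lower (log2 fold change -1.50 ± 1.01, edgeR adjusted p = 0.403). Acadvl, for very long chains, stood at 179.1, 142.2 and 165.6 CPM in Astro and at 38.78, 74.74 and 143.1 in PAP, where animal 3 reached the Astro range (-0.92 ± 0.54, edgeR adjusted p = 0.329). Exons of Acadvl overlapped Dvl2 on the other strand over 42.9% of their bases, and Dvl2 had 1829, 1414 and 1981 counts in Astro and 27, 68 and 262 in PAP, so the level of Acadvl is uncertain.

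For shorter chains, Acads stood at 32.88, 27.05 and 26.4 CPM in Astro and at 0, 2.062 and 1.652 in PAP, an edgeR log2 fold change of -4.51 ± 1.35 with an adjusted p of 0.0613. DESeq2's Wald test called Acads lower (adjusted p = 3.32e-07), as did 3 other settings. Acadm, the medium-chain enzyme, stood at 203.6, 179.9 and 172.7 CPM in Astro and at 53.07, 0 and 26.43 in PAP (-2.81 ± 1.43, edgeR adjusted p = 0.254), and it was called lower without PAP replicate 2 (adjusted p = 0.0261). Acad9, also known as an assembly factor of respiratory complex I, stood at 48.83, 45.3 and 42.59 CPM in Astro and at 0, 0.5154 and 49.9 in PAP (-1.43 ± 1.87, edgeR adjusted p = 0.697), and it was called lower without PAP replicate 3 (adjusted p = 0.0189). Acad11 stood at 59.47, 57.1 and 63.56 CPM in Astro and at 0, 31.44 and 74.68 in PAP (-0.76 ± 1.52, edgeR adjusted p = 0.811). In animal 3, Acad9 and Acad11 lay above their Astro level. The order of the animals in PAP was thus not shared, with Acadm highest in animal 1 on the CPM scale and Acad9 and Acad11 in animal 3. The 6 genes summed to 775.4 ± 76.27 CPM in Astro and 269.2 ± 184.1 in PAP (SD, n = 3).

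The steps that complete the cycle are carried by the mitochondrial trifunctional protein, made of Hadha and Hadhb, and by separate enzymes for shorter chains. Hadhb (ENSMUSG00000059447, chr5:30155248-30184593, plus strand), the thiolase subunit, stood at 260.6, 184.6 and 227.0 CPM in Astro and at 79.6, 58.25 and 44.61 in PAP. Each PAP library lay below each Astro library. The log2 fold change was -1.88 ± 0.39 (SE; edgeR adjusted p = 0.0208), and -1.91 with the animal as a block (adjusted p = 0.206). The call was also lost in the voom fit (adjusted p = 0.292) and without any 1 of the Astro replicates (adjusted p of 0.0936 to 0.106), and it held in 11 of 16 settings. Stretches of 50 bases of Hadhb matched the processed pseudogene Gm13910 over 18.1% of positions, and that gene had 8, 13 and 11 counts in Astro and 1, 0 and 0 in PAP.

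Hadha (chr5:30118304-30155162, minus strand), the subunit with the hydratase and dehydrogenase, starts beside Hadhb on the other strand, and their promoter windows share 228 bases. It stood at 82.52, 79.87 and 106.9 CPM in Astro and at 106.1, 3.093 and 33.04 in PAP. The PAP libraries of Hadha thus covered a wide range that reached into that of Astro (log2 fold change -0.92 ± 1.08, edgeR adjusted p = 0.659). The difference between the subunits was not tested.

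Among the enzymes for shorter chains, Echs1, the enoyl-CoA hydratase, stood at 461.5, 318.5 and 367.5 CPM in Astro and at 33.68, 173.2 and 148.7 in PAP, without overlap (log2 fold change -1.69 ± 0.61, edgeR adjusted p = 0.111). DESeq2's Wald test called Echs1 lower (adjusted p = 0.02). Hadh, the dehydrogenase, stood at 247.6, 170.8 and 193.7 CPM in Astro and at 261.8, 136.1 and 87.57 in PAP, and its groups overlapped (-0.34 ± 0.47, edgeR adjusted p = 0.722). Acaa2, the thiolase, stood at 149.7, 206.3 and 202.4 CPM in Astro and at 52.05, 107.2 and 1.652 in PAP (-1.80 ± 1.17, edgeR adjusted p = 0.383). Acaa2 had the highest mean of the 5 genes per kilobase in both compartments, at 123 CPM in Astro and 35.4 in PAP. In PAP its libraries ran from 1.09 to 70.7 CPM per kilobase. Those of Hadh, with a mean of 32.5, ran from 17.6 to 52.6, so the order of these genes in PAP is uncertain. The 5 genes summed to 1087 ± 121.2 CPM in Astro, the largest sum of any role there, and to 442.2 ± 113.1 in PAP (SD, n = 3).

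Unsaturated chains need isomerases and a reductase before they can enter the cycle. Eci1, an enoyl-CoA isomerase of mitochondria, stood at 359.1, 321 and 331.9 CPM in Astro and at 61.74, 146.4 and 271.9 in PAP (log2 fold change -1.07 ± 0.54, edgeR adjusted p = 0.245). Eci2, a related isomerase, stood at 340.6, 238.9 and 324.5 CPM in Astro and at 62.25, 188.7 and 104.1 in PAP (-1.35 ± 0.47, edgeR adjusted p = 0.100). Decr1, the dienoyl-CoA reductase, stood at 172.1, 129.4 and 135.8 CPM in Astro and at 0, 39.17 and 46.26 in PAP (-2.35 ± 1.43, edgeR adjusted p = 0.348), and it was called lower without PAP replicate 1 (adjusted p = 0.0282). None of the 3 passed the threshold in the edgeR group fit, while DESeq2's Wald test called Eci2 lower (adjusted p = 0.0219). For each of the 3 the PAP libraries all lay below the Astro libraries, as they did for 35.1% of all genes tested.

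Electron transfer from the dehydrogenases was the role with the highest level per kilobase in Astro, where Etfb reached 242 CPM and Etfa 195. Etfa and Etfb encode the subunits of electron transfer flavoprotein. Etfa stood at 402.9, 300.2 and 369.2 CPM in Astro and at 149.5, 203.1 and 65.1 in PAP (log2 fold change -1.36 ± 0.46, edgeR adjusted p = 0.0908). Etfb stood at 278.1, 312.5 and 256.3 CPM in Astro and at 60.21, 170.6 and 130.5 in PAP (-1.23 ± 0.44, edgeR adjusted p = 0.108). Both subunits lay below Astro in every library and neither passed the threshold in the edgeR group fit. DESeq2's Wald test called both lower (adjusted p = 0.0208 for Etfa and 0.0219 for Etfb), as it did 23.6% of all genes tested. Etfb overlaps Gm45233 on the same strand over 53.0% of its exonic bases, and Gm45233 had 4418, 4450 and 4276 counts in Astro and 100, 277 and 345 in PAP, so the count of Etfb is uncertain.

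Etfdh, which hands the electrons to ubiquinone, stood at 139, 112.1 and 115.6 CPM in Astro and at 5.102, 135 and 0 in PAP. In animal 2 its PAP level was above its Astro level, while in animals 1 and 3 it was far below. The fitted value was accordingly loose (log2 fold change -1.39 ± 1.79, edgeR adjusted p = 0.691).

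**Figure D2:**
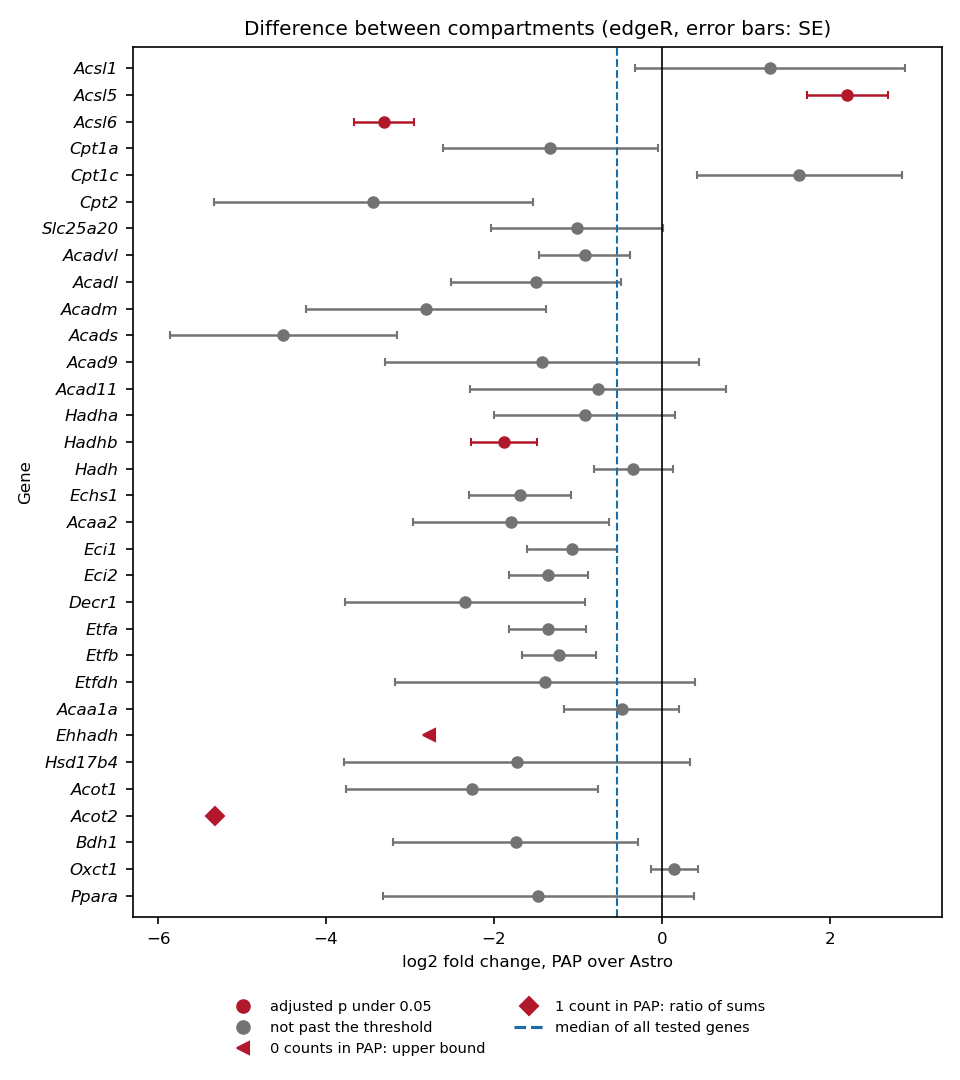
Log2 fold change of PAP over Astro (x axis) for each gene, with SE bars derived from the edgeR test, in red where the adjusted p was under 0.05. The triangle is the upper bound for Ehhadh (0 counts in PAP), the diamond is the ratio of sums for Acot2 (1 count), and the dashed line is the median of all genes tested, -0.53. Most points lie to the left of that line with wide bars, and Acsl5 is the red point to the right of 0.

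Peroxisomal enzymes included the gene with no PAP count at all. Ehhadh (ENSMUSG00000022853, chr16:21761287-21787807, minus strand), the bifunctional enzyme of the inducible peroxisomal pathway, had 292, 93 and 209 counts in Astro (15.69, 5.457 and 10.61 CPM). It had 0 counts in each PAP library, and its mean level was at least 6.84-fold lower there. This sets the Astro mean of 10.58 CPM against 3 counts in the PAP library with the highest such limit. Animal 2 lay below that mean in Astro, so the value is not a bound for each animal. Its edgeR adjusted p was 0.0224, and 0.206 with the animal as a block. The call held in 10 of the 14 settings in which Ehhadh was tested. Hsd17b4, the other bifunctional enzyme of peroxisomes and the highest of the 3 genes per kilobase in Astro (30.5 CPM), stood at 89.18, 92.72 and 129.9 CPM there and at 0, 0 and 93.84 in PAP. Its values in animal 3 were of similar size in both compartments (log2 fold change -1.73 ± 2.06, edgeR adjusted p = 0.666). The value rests on that PAP library, since with the animal as a block it was -6.84 (adjusted p = 0.247) and without PAP replicate 3 the gene was at 0 in PAP and called lower (adjusted p = 0.0129). Acaa1a, the peroxisomal thiolase, stood at 80.1, 71.65 and 89.81 CPM in Astro and at 27.04, 31.96 and 114.3 in PAP (-0.48 ± 0.69, edgeR adjusted p = 0.729). It shares 12.4% of its 50-base positions with Acaa1b, which had at most 9 counts in any library.

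Thioesterases release the fatty acid from coenzyme A again. Acot2 (ENSMUSG00000021226, chr12:83987861-83993873, plus strand), the mitochondrial form, had 66, 105 and 149 counts in Astro (3.546, 6.162 and 7.564 CPM) and 0, 0 and 1 in PAP. The ratio of summed counts, Astro over PAP, each over the summed TMM-scaled library sizes, was 40.0. Its exact 95% interval for counting error was 7.14 to 1590. Its edgeR adjusted p was 0.0208, and 0.206 with the animal as a block. The call held in 10 of the 12 settings in which Acot2 was tested. Acot1, the cytosolic form, stood at 51.63, 37.03 and 38.13 CPM in Astro and at 0, 7.216 and 19.17 in PAP, without overlap (log2 fold change -2.26 ± 1.50, edgeR adjusted p = 0.396). Through stretches like those printed above, 24.5% of the 50-base positions of Acot2 also occur in Acot1, so the split of reads between the genes is uncertain.

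Ketone use was the role whose mean summed levels lay closest together in the compartments. Oxct1, the enzyme that returns coenzyme A to acetoacetate and so commits ketone bodies to oxidation, stood at 473.9, 495.5 and 475.8 CPM in Astro and at 390.3, 697.9 and 520.8 in PAP. Its groups overlapped and its PAP libraries lay on both sides of Astro. The log2 fold change was 0.15 ± 0.28 (SE; edgeR adjusted p = 0.791), over a range of -0.14 to 0.35 in all settings, which does not show that the levels were alike. Per kilobase, Oxct1 was the fifth of the 32 genes in Astro (130 CPM) and the first in PAP (145 CPM). Exons of Oxct1 overlap BC037032 on the other strand over 12.6% of their bases. BC037032 had 334, 314 and 499 counts in Astro and 17, 67 and 601 in PAP, beside 8821, 8443 and 9373 against 765, 1354 and 1576 for Oxct1, so the level of Oxct1 is uncertain, most of all in PAP of animal 3.

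Bdh1, which converts 3-hydroxybutyrate to acetoacetate, stood at 118.6, 104.4 and 125 CPM in Astro and at 0, 37.11 and 66.75 in PAP, below every Astro library (log2 fold change -1.74 ± 1.46, edgeR adjusted p = 0.517). With both genes summed, ketone use stood at 597.7 ± 4.549 CPM in Astro and 571 ± 172.9 in PAP (SD, n = 3), and the groups overlapped. Ppara, the nuclear receptor that drives transcription of many of these genes in liver, stood at 7.414, 12.91 and 16.85 CPM in Astro and at 0, 0 and 13.22 in PAP (log2 fold change -1.47 ± 1.85, edgeR adjusted p = 0.686). Its value rests on PAP of animal 3 in the same way, with -4.75 under the animal block (adjusted p = 0.412) and a call as lower without PAP replicate 3 (adjusted p = 0.0216).

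**Figure D3:**
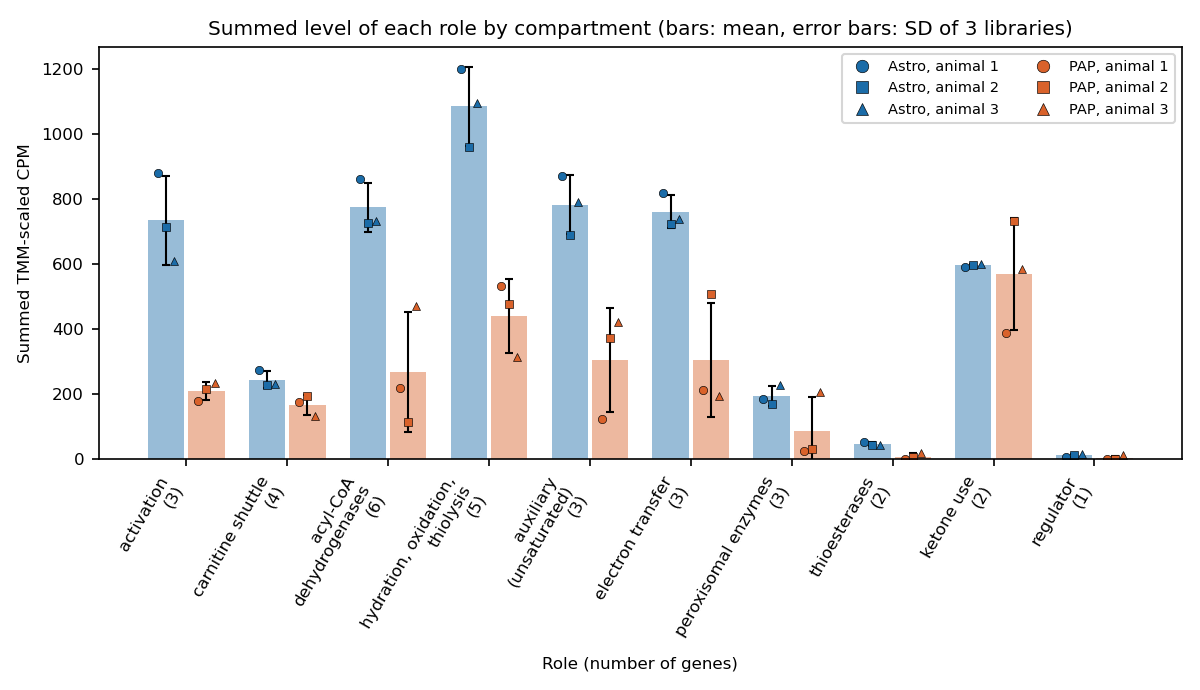
Summed TMM-scaled CPM of the genes of each role (x axis, with the number of genes) in Astro (blue) and PAP (orange), with bars at the mean, error bars for the SD of 3 libraries and points for the animals. The points of ketone use, peroxisomal enzymes and the regulator Ppara overlap between compartments, and for every other role all PAP points lie below all Astro points.

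A wider list held 66 other genes of the pathway. Of these, 60 were tested, 9 were lower in PAP and 1 was higher, beside 15.4% lower and 5.92% higher over all genes tested, so the calls were no more frequent than in the background. None was called with the animal as a block (adjusted p of 0.199 to 0.218 for the 10). Its genes summed to 14000, 12270 and 12330 CPM in Astro and 2985, 4646 and 7368 CPM in PAP, without overlap. The median log2 fold change of the 60 was -1.36, close to that of the 32.

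Uptake, binding and activation held 3 of the lower genes. Slc27a1, a fatty acid transport protein, stood at 377.8, 327.4 and 226.4 CPM in Astro and at 46.94, 99.48 and 53.2 in PAP (log2 fold change -2.22 ± 0.44, edgeR adjusted p = 0.0208). Fabp5, a fatty acid binding protein, stood at 301.5, 303.3 and 376 CPM in Astro and at 143.9, 139.2 and 139.8 in PAP (-1.21 ± 0.27, edgeR adjusted p = 0.0238), with PAP libraries close to each other. Acsbg1, an acyl-CoA synthetase known from brain, stood at 1252, 894.8 and 1257 CPM in Astro and at 234.7, 321.1 and 629.5 in PAP (-1.52 ± 0.41, edgeR adjusted p = 0.0448).

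Pcca, a subunit of the carboxylase for propionyl-CoA left over from odd chains, stood at 78.38, 79.1 and 82.34 CPM in Astro and at 3.061, 9.278 and 10.24 in PAP (log2 fold change -3.40 ± 0.73, edgeR adjusted p = 0.0222). Every PAP library lay below every Astro library.

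Further lower calls were genes with 3 or fewer counts in each PAP library. For these the ratio of summed counts, Astro over PAP, each over the summed TMM-scaled library sizes, is given with its exact 95% interval for counting error. Acacb, which makes the malonyl-CoA that blocks mitochondrial entry, had a ratio of 21.6 (5.93 to 179, edgeR adjusted p = 0.0262). Prkaa2, a catalytic subunit of the AMP-activated kinase, had a ratio of 34.1 (11.6 to 166, edgeR adjusted p = 0.0354). Sirt5, a mitochondrial deacylase, had 0 counts in every PAP library and a mean level at least 10.2-fold lower than in Astro (edgeR adjusted p = 0.0208).

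The gene called higher was Ppargc1b, a transcriptional coactivator of mitochondrial genes. It had 20, 25 and 9 counts in Astro (1.074, 1.467 and 0.4569 CPM) and 150, 17 and 267 in PAP (76.54, 8.763 and 88.23 CPM), an edgeR log2 fold change of 5.84 ± 1.25 (adjusted p = 0.0222). Each PAP library lay above each Astro library, with animal 2 well below the other two in PAP.

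In PAP, the highest level per kilobase in the wider list was that of Dbi, the acyl-CoA binding protein, with 1178 CPM there and 3526 in Astro. Dbi stood at 5418, 5136 and 4489 CPM in Astro and at 365.3, 1690 and 2972 in PAP (log2 fold change -1.58 ± 0.67, edgeR adjusted p = 0.171). Among the highest genes of the other groups in PAP were Acot13 (114 CPM per kilobase), Hsd17b10 (93.6), Scp2 (41.1), Aldh9a1 (25.0) and Ppargc1b (14.5). None of the first 4 of these passed the threshold, and Hsd17b10, a dehydrogenase of branched chains, had a log2 fold change of -0.08 ± 0.36 (edgeR adjusted p = 0.924).

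**Figure D4:**
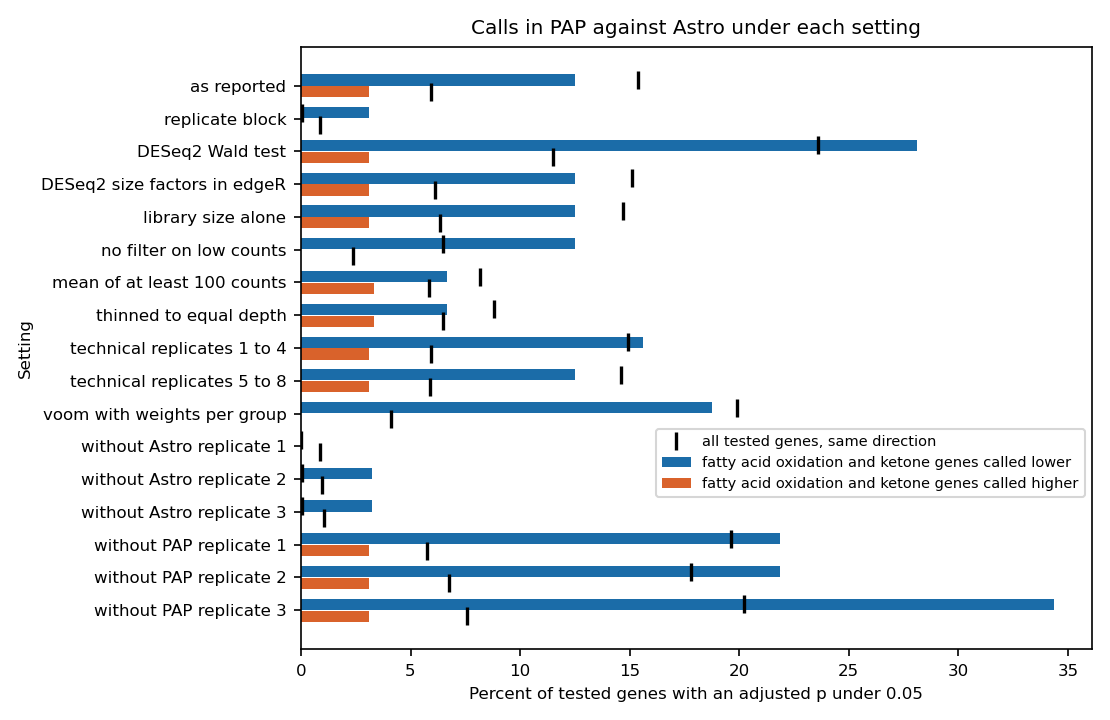
Percent of the tested genes of the list with an adjusted p under 0.05 (x axis) in PAP against Astro under each setting (y axis), with blue bars for lower, orange bars for higher and black ticks for all genes tested in the same direction. The blue bars run from 0 without Astro replicate 1 to their longest without PAP replicate 3, and the ticks move with them.

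Promoter windows were available for 28 of the 32 genes, as 32 windows of 300 bases. The half-site AGGTCA, searched on both strands, was in 6 of them (Acadm, Acadvl, Acsl6, Cpt1a, Cpt1c and Echs1), beside 16.3% of 32851 mouse windows. A pair of half-sites with 1 base between them, the arrangement bound by Ppara with its partner, was in none of the 32, beside 0.0396% of all windows. TCAAGGTCA, the motif of estrogen-related receptors, which contains the half-site, was in the Acsl6 window printed above, beside 0.423% of all windows. CGCATGCG, the core of the nuclear respiratory factor motif, was in the windows of Acadm, Etfdh and Ppara, beside 1.87% of all. TATAAA was in none, beside 13.6%. The median GC content of the 32 windows was 59.5%, beside 52.7% for all windows. A match of letters is a description and not a bound site.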

How the data were processed

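TRAP libraries from 3 mice and 2 compartments were deposited as raw gene counts, 8 technical replicates each, with no scaling by the authors, per the file headers and values. The submitters' processing notes name bcl2fastq 2.18.0.12, Trim Galore 0.4.1, STAR 2.5.2b, SAMtools and HTSeq 0.5.3 with build mm10. The strand setting and annotation release are not given in the sources used here. Technical replicates were summed into 6 libraries. Symbols, positions and exonic lengths came from GENCODE M21 on GRCm38 (47224 of 47643 IDs, with 99.86% of counts).

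Genes passing filterByExpr (minimum count 10; every gene of the list passed through Astro) were fitted with edgeR 4.0.16 in R 4.3.3, by group alone, with TMM factors and Benjamini-Hochberg adjustment at 0.05. The edgeR test returns no SE, so the SE printed is the absolute log2 fold change over the square root of the F statistic. The code was tested on simulated data, where it found changed genes at a low spread between libraries but not at the spread estimated in these, so a gene that was not called may still differ. DESeq2 1.42.0, limma 3.58.1 voom, an animal block, other scalings, filters and depths, and leaving out each library were alternatives. Animal numbers pair the libraries because both compartments come from the same animal, per the animal label of each sample. Same-animal deviations from the group means correlated at 0.0335, 0.0187 and -0.0326 over 14618 genes. Technical replicates were not independent samples, so n = 3 per group. The list and all other lists and tests were chosen with earlier results of these data known. Per-library values were to be given for genes called, genes above 3 counts in all 3 PAP libraries, and the highest per kilobase of each role; other genes of the list by counts and ranges. In the wider list, genes called and the highest per kilobase in PAP of each group were to be named, and some of them are not reported here. One of its 67 symbols was not found. Counts carry no molecular identifiers, so intervals cover counting error only. Between-gene comparisons use CPM per kilobase of exon.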

Additional observations from a re-analysis of the deposited data

How the results depend on the processing

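Of the results, the number of called genes moved most. With the replicate block, 1 gene of the list was lower and 0 higher, 0 of the wider list were lower and 0 higher, and the median log2 fold change of the list was -2.07, beside -1.63 for all genes tested. DESeq2 called 9 genes of the list and 14 of the wider list lower, beside 23.6% of all genes tested. Without a filter on low counts 0 genes of the list were called higher, beside 2.39% of all genes. Under a required mean of 100 counts 2 of 30 genes of the list were lower (8.19% of all genes) and 0 of the wider list higher (5.83%), and with libraries thinned to equal depth 2 of 30 were lower (8.80% of all genes). The voom fit called 0 genes of the list higher (4.13% of all genes), with a median of -2.63 beside -1.62 for all genes. Scaling by library size alone moved the median of all genes to -0.37 and that of the list to -1.27. Leaving out 1 library gave 0 to 11 lower and 0 to 1 higher genes of the list, 0 to 18 lower and 0 to 2 higher genes of the wider list, and medians of -1.86 to -1.25. The fewest calls came without Astro replicate 1 (0 lower) and without Astro replicates 2 or 3 (1 lower each), and more came without PAP replicates 1 or 2 (7 lower each) and 3 (11 lower). Over 16 settings for 30 genes of the list, 14 for Ehhadh and 12 for Acot2, which did not pass the stricter filter, equal depth or, for Acot2, the filter without Astro replicate 2 or 3, 461 values kept their direction and side of the threshold, 23 newly passed it, 19 no longer did and 3 turned: Oxct1 to -0.01 without a filter and -0.14 without PAP replicate 2 (-0.14 to 0.30 with 1 library left out), and Acsl1 to -0.59 with voom. The cause of these changes was not tested. The summed share of counts stayed within 1 SD at equal depth and in both sets of technical replicates, and library size alone was not run for it since a share uses no scaling. Fewer counts in PAP limit what can be seen of genes at 0 there.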
